A study of Oncorhynchus mykiss with 48 samples.

Results

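Liver transcripts of F2 rainbow trout at 365 days post-fertilization (dpf) were compared directly between the BPA40 and BPA4 lineages, without the controls. The 8 livers are all those of these lineages at this time point, 4 fish each, out of 48 livers in the series. BPA40 and BPA4 name the bisphenol A (BPA) that F0 eggs had taken up before fertilization, 40 or 4 ng per egg, after incubation in ovarian fluid with 30 or 3 mg/l BPA. The F2 fish were not themselves treated with BPA. They grew from eggs of 3-year-old F1 females of each lineage, fertilized with sperm of untreated males, and no BPA was detectable in those eggs. The paper states that the germ cells behind those eggs had nonetheless met BPA in the F1 embryo. Control fish, at 0 ng per egg, descend from eggs incubated with vehicle. The F0 eggs were a pool from a few females split over the treatments, and each lineage was kept in a single tank in F2. Dose, tank and maternal family therefore cannot be told apart here. The paper also reports that F2 fish of the BPA4 lineage were significantly longer and heavier than those of BPA40 at this age. The part of body size in the liver differences below was not tested. The labels name each library as a separate fish, and the p-values within F2 measure the spread between fish of 1 tank per lineage.

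BPA is a monomer of polycarbonate plastics that binds oestrogen receptors in vertebrates. In egg-laying fish the liver is a main target of oestrogens, which switch on the yolk protein vitellogenin there. It also makes most plasma proteins and governs the storage and release of lipid and glucose. Compounds taken up by an egg reach the embryo with the yolk. An F2 fish is linked to its lineage's dose through the F1 mother, whose germ cells were exposed when she was an embryo. The contrast of BPA40 and BPA4 asks whether the amount in the F0 egg, rather than its presence alone, is followed by a difference in the liver of the second generation. The tables identify genes by identifiers of the genome annotation, and 0 of them matched the reference table of trout genes, so genes are described by identifier and level and the liver label could not be checked against marker genes.

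Each BPA40 liver had between 17057477 and 19528494 fragments assigned to genes, against 14083795 to 17261075 for the BPA4 livers. Genes with at least 5 fragments numbered 30120, 28798, 28347 and 28109 in the BPA40 livers and 27853, 28021, 27718 and 27318 in the BPA4 livers, so every BPA40 liver exceeded every BPA4 liver. This difference had an exact permutation p of 0.0286, the smallest that 4 fish against 4 allow, and an adjusted p of 0.114 over the 4 library measures compared. Depth differed by 2557316 fragments in the same direction, with an exact permutation p of 0.0571 and an adjusted p of 0.114, and its part in the number of genes detected was not tested. The share of fragments in the 100 most abundant genes was 29.7 to 36.5% in BPA40 and 31.7 to 37.1% in BPA4 (exact permutation p = 0.857). This share leaves out 14 genes marked as too deep for Cuffdiff to process. In the fragment totals above, such a gene counts as 0 in each fish where it was marked. By the read numbers the paper gives, every BPA40 library here was deeper than every BPA4 library. The remaining library measure, the TMM scaling factor, averaged 1.02 in BPA40 and 0.988 in BPA4 (exact permutation p = 0.771). BPA40 replicate 0 had the highest factor, 1.16, the most genes detected and the lowest share in the top 100, but was not the deepest. Without it the difference in genes detected was 690.5 (exact permutation p = 0.0286). With each BPA4 fish left out in turn, the exact permutation p of this difference was 0.0571 to 0.0857. BPA4 replicate 2 lay within the BPA4 range in depth and genes detected, but stood apart on the second principal component below. Control replicate 0 stood apart from the other controls with 24570 genes detected against 27918 to 29106.

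The whole profiles separated by dose. On log2 CPM, the usual scaling of a gene's fragments to library size, over 25346 genes, 22.7% of the sum of squares lay between the doses, and the ratio of the sums of squares between and within doses was 0.294. Any split of the 8 fish puts some share between its groups, so the ratio was set against all such splits. The exact permutation p was 0.0286, the smallest possible. All 8 fish were nearer on average to the fish of their own dose, by margins that differed. BPA4 replicate 0 was almost midway, at a mean distance of 0.747 to its own dose and 0.752 to the other. BPA40 replicate 0 had the widest margin, at 0.729 and 0.872. The median distance between fish, as the root mean square difference in log2 CPM, was 0.701 within BPA40 (6 pairs), 0.778 within BPA4 (6 pairs) and 0.804 between the doses (16 pairs). The ranges of these distances overlapped, at 0.647 to 0.776 within BPA40, 0.593 to 0.900 within BPA4 and 0.595 to 0.920 between doses. With each fish left out in turn the ratio was 0.297 to 0.375. The exact permutation p stayed at 0.0286 in these fits, except without BPA40 replicate 1 (ratio 0.297) or BPA4 replicate 2 (ratio 0.375), where it was 0.0571.

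The first principal component held 25.8% of the variance and split the doses without overlap, with BPA40 scores of 14.5 to 61.5 and BPA4 scores of -61.7 to -9.42. The second held 22.5% and did not split them (exact permutation p = 0.743). On it, BPA4 replicate 2 scored 80.6, while the other BPA4 fish scored -38.5, -34.2 and -27.9 and the BPA40 fish -19.9 to 39.3. Spread between fish of a dose, as the biological coefficient of variation, was 29.7% in BPA40 and 32.4% in BPA4, and 26.6% in BPA4 without replicate 2. In 46.6% of genes the BPA40 fish varied more than the BPA4 fish.

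**Figure D1:**
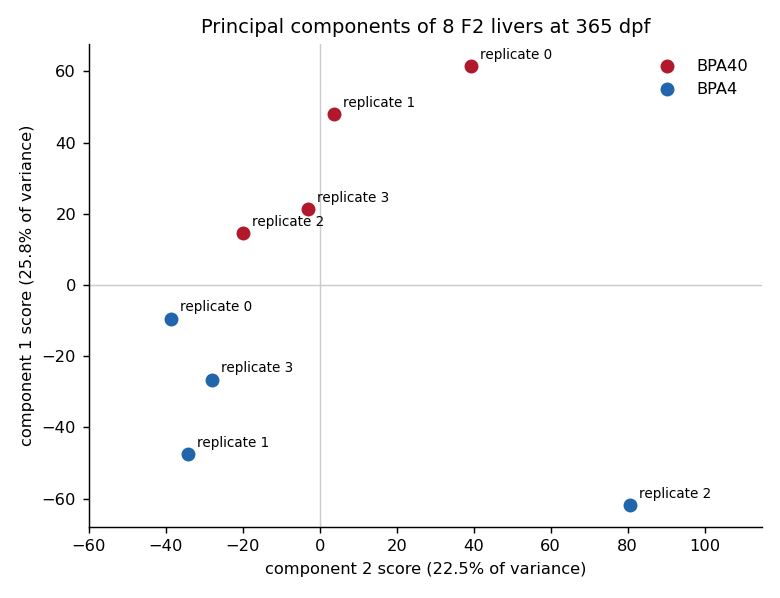
Scores of the 8 F2 livers on the first component (vertical axis, 25.8% of variance) and the second (horizontal axis, 22.5%), 1 point per fish. The 4 BPA40 fish lie above the 4 BPA4 fish on component 1, and BPA4 replicate 2 lies alone at 80.6 on component 2.

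By edgeR's quasi-likelihood test, few single genes differed beyond the spread between fish. Of 25346 genes tested, it called 5 at an adjusted p under 0.05 (0.0197%), of which 3 rose in BPA40 (0.0118%) and 2 fell (0.00789%). With no scaling beyond the library totals, 2 genes were called, and both fell. A larger body of genes lay below that threshold: 3019 genes had an unadjusted p under 0.05 (11.9%), of which 1693 were higher (6.68%) and 1326 lower (5.23%) in BPA40. The levels of the 2 doses did not overlap in 1672 genes (6.60%), with 845 higher (3.33%) and 827 lower (3.26%) in BPA40. Without scaling, these were 837 and 578 genes, and 1773 genes were higher and 918 lower at an unadjusted p under 0.05. For a gene without a difference, chance keeps 4 fish from overlapping 4 others with a probability of 0.0286. It gives an unadjusted p under 0.05 with a probability of 0.05. The number of called genes rests on single fish. None was called without BPA40 replicate 3 or without BPA4 replicate 3, where 2744 and 2594 genes had an unadjusted p under 0.05 by edgeR. The count was 3 without BPA4 replicate 2 and 13 without BPA40 replicate 2. DESeq2, run without edgeR's expression filter but with its own default filter on mean count, called 486 genes. A p-value was given for 39856 genes, and the number left after that filter was not recorded. Within edgeR, the count depended more on the test than on the filter. The quasi-likelihood test with a filter of 1 fragment in any fish called 7 of 39987 genes. On the 25346 filtered genes, edgeR's likelihood-ratio test called 418.

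**Figure D2:**
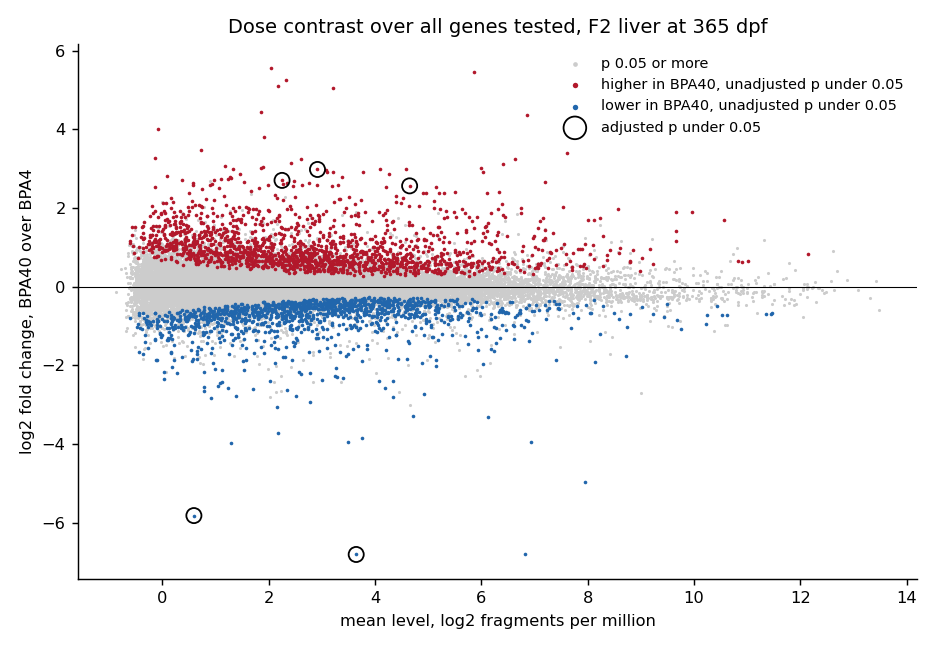
Log2 fold change of BPA40 over BPA4 (vertical axis) against mean level in log2 CPM (horizontal axis) for 25346 genes, 1 point per gene, with genes at an unadjusted p under 0.05 coloured by direction. The 5 circled genes passed the adjusted threshold, and those 2 that fell lie at log2 fold changes of -5.82 and -6.81.

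The 2 genes that fell, GSONMT00055895001 and GSONMT00036269001, were close to absent from the BPA40 livers. GSONMT00036269001 stood at 0.201, 0, 0.502 and 0.181 CPM in the BPA40 livers (4, 0, 8 and 3 fragments), against 32.9, 22.8, 11.0 and 32.0 CPM in the BPA4 livers. The highest BPA40 fish was thus far below the lowest BPA4 fish. Its log2 fold change was -6.81 ± 0.614 (SE), with an adjusted p of 0.0119 by edgeR's quasi-likelihood test. In FPKM, which counts per transcript length, it averaged 0.0384 in BPA40 and 4.29 in BPA4. Here and below, the SE of a fold change was worked back from the test statistic. It is only approximate for genes with few fragments in a dose.

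GSONMT00055895001 stood at 0.0502, 0, 0.0628 and 0.0604 CPM in the BPA40 livers, against 3.73, 2.62, 1.58 and 3.28 CPM in the BPA4 livers. No BPA40 liver held more than 1 fragment, and together they held 3, against 164 in the BPA4 livers. The ratio of BPA40 to BPA4, scaled for depth, was 0.0149, with a 95% exact interval of 0.00305 to 0.0444 that covers counting error only. Its log2 fold change was -5.82 ± 0.516 (SE), with an edgeR adjusted p of 0.0119. Both genes had the same order of fish within BPA4, with replicate 0 highest and replicate 2 lowest.

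The controls did not form a single level for these genes. GSONMT00036269001 stood at 0.202, 41.3, 9.99 and 16.5 CPM in Control replicates 0 to 3, and GSONMT00055895001 at 0, 6.27, 1.51 and 2.34 CPM. Control replicate 0, the control that stood apart, lay within the BPA40 range for both genes. The other 3 controls lay above every BPA40 fish and spanned the BPA4 range. Both genes kept a negative fold change in each of 20 alternative fits and passed the adjusted threshold in 15. They no longer passed without BPA4 replicate 3 (adjusted p = 0.0682 for both, edgeR) or without BPA40 replicate 3 (adjusted p = 0.0765 for both, edgeR).

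The 3 genes that rose were expressed in all 8 livers and at several times the level in BPA40. GSONMT00044688001 stood at 18.6, 14.3, 9.05 and 10.4 CPM in the BPA40 livers, against 2.40, 1.22, 1.94 and 1.02 CPM in the BPA4 livers. Its log2 fold change was 2.98 ± 0.330 (SE), with an edgeR adjusted p of 0.0450. GSONMT00044689001, whose identifier is the next in number, was the more abundant, at 63.4, 48.5, 26.6 and 32.0 CPM in the BPA40 livers against 8.47, 5.82, 8.35 and 6.18 CPM in the BPA4 livers. Its log2 fold change was 2.56 ± 0.292 (SE), with an edgeR adjusted p of 0.0450. Per length, it averaged 27.4 FPKM in BPA40 and 4.63 in BPA4, while GSONMT00044688001 averaged 10.2 FPKM in BPA40 and 1.29 in BPA4. The trout genome holds many near-identical gene copies, and whether these neighbours in number share reads was not tested.

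The third gene that rose stood at 11.99, 8.85, 4.59 and 6.34 CPM in the BPA40 livers, against 1.39, 1.22, 1.22 and 1.02 CPM in the BPA4 livers, with a log2 fold change of 2.70 ± 0.315 (SE) and an edgeR adjusted p of 0.0450. For all 3 genes the BPA40 fish fell in the same order, with replicate 0 highest, then 1, then 3, then 2. The BPA4 fish of the third gene had a mean of 1.21 ± 0.153 CPM (SD, n = 4), while those of GSONMT00044688001 had 1.64 ± 0.644 CPM and those of GSONMT00044689001 had a standard deviation of 1.40 CPM.

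The controls of the 3 genes that rose overlapped BPA40 and lay above BPA4. Control replicates 0 to 3 held GSONMT00044688001 at 21.7, 5.52, 20.9 and 5.04 CPM and GSONMT00044689001 at 103.3, 24.9, 69.7 and 20.4 CPM. The third gene stood at 13.8, 3.57, 13 and 3.93 CPM. Every control exceeded every BPA4 fish for each gene, while the control and BPA40 ranges overlapped. All 3 kept a positive fold change in each of 21 alternative fits, between 2.12 and 3.22 on the log2 scale, and passed the adjusted threshold in 10. With 1 fish left out, each gene passed in 2 of 8 fits, and all 3 passed together in 1, without BPA40 replicate 2. The highest adjusted p was 0.237, without BPA4 replicate 3 (edgeR).

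**Figure D3:**
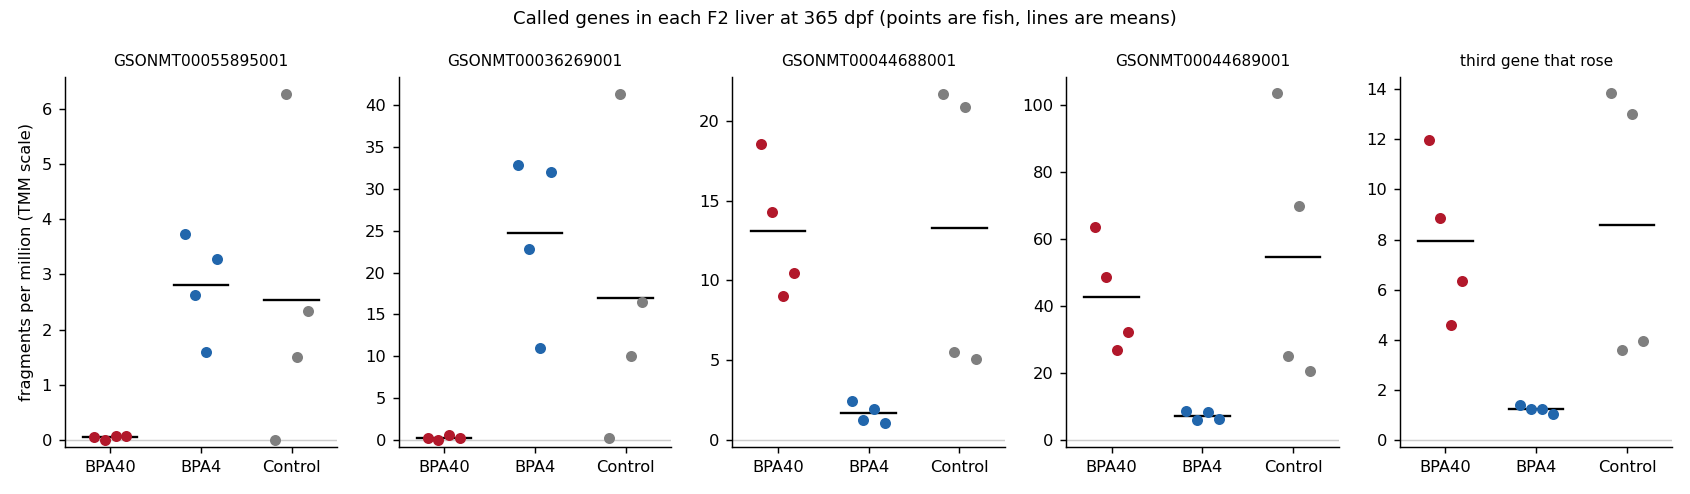
CPM in each F2 liver at 365 dpf for the 5 called genes, with BPA40, BPA4 and Control from left to right, points for fish and lines for the mean of 4 fish. BPA40 lies near 0 for the 2 genes that fell, and for the 3 that rose BPA4 lies below all BPA40 and Control fish.

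The genes next outside the threshold were 2 with log2 fold changes of 2.39 and 3.27 and adjusted p-values of 0.0524 and 0.0697 (edgeR), followed by 1 at 1.56 and 0.0813. An unadjusted p under 0.001 was reached by 124 of the 25346 genes tested, 99 higher and 25 lower in BPA40. Their adjusted p-values in edgeR ran up to 0.193. Of the 99 higher genes, 81 differed by at least 2-fold, with a median log2 fold change of 1.60. Of the 25 lower genes, 17 differed by at least 2-fold, with a median of -1.12. These sizes are a description, since the same 8 fish chose the genes. These genes had a median mean level of 5.84 FPKM for the higher and 6.55 FPKM for the lower ones. The median of all genes tested was not set beside it.

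Among the larger differences, more genes were higher than lower in BPA40. The median log2 fold change over all genes was -0.02. Among genes at an unadjusted p under 0.05, the median was 0.88 for those higher and -0.67 for those lower in BPA40. Among the same genes, a difference of at least 2-fold was seen in 681 higher and 279 lower ones, of at least 4-fold in 117 and 47, and of at least 8-fold in 21 and 12. Of the 25346 genes tested, those whose fish did not overlap numbered 317 higher and 107 lower at 2-fold or more, and 60 and 10 at 4-fold or more. The deeper sequencing of BPA40 lies in the same direction as this imbalance, and its part was not tested.

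The share of genes at an unadjusted p under 0.05 was 7.15% below 1 CPM, 12.1% from 1 to 10 CPM, 13% from 10 to 100 CPM and 11.7% at 100 CPM or more. The 14 genes marked as too deep for Cuffdiff to process were left out before ranking by level. Of the 100 remaining genes with the highest mean FPKM, none was called by edgeR, beside 0.0197% of all genes. At an unadjusted p under 0.05, 3 were higher and 5 lower, beside 11.9% of all genes in either direction. Within 2-fold lay 99 of the 100, beside 94.7% of all genes tested. Their log2 fold changes ran between -1.13 and 0.91. No gene had at least 5 fragments in every fish of 1 dose and none in the other. At 1 fragment or more, 50 of 46571 genes were found in all BPA40 fish only and 10 in all BPA4 fish only. BPA40 was the more deeply sequenced.

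The controls, which took no part in the fit, were set beside the means of the doses on the log2 scale. Among the 3019 genes at an unadjusted p under 0.05, the control mean was nearer BPA4 in 58.1% of those higher in BPA40 and in 33.2% of those lower in BPA40, beside 47.0% of all genes. Without Control replicate 0 these shares were 59.5, 41.0 and 49.5%. At this threshold the control was thus more often nearer the dose group with the lower level, in both directions. Its mean lay outside both dose means in 1424 of the 3019 genes, and in 18769 of all 25346. The 3019 genes were chosen for a gap between the doses, so these 2 counts are not alike. The share of all genes pools both directions. For this comparison 0.1 CPM was added before taking logs, and the part of low counts in it was not tested. At an unadjusted p under 0.001, the control was nearer BPA4 in 66.7% of the 99 higher genes and 36.0% of the 25 lower ones, and in 64.6 and 52.0% without that fish. Of the 5 called genes, the control mean was nearer BPA4 for the 2 that fell and nearer BPA40 for the 3 that rose.

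The same contrast was then made at the other time points, from other fish. The paper spread the F1 fish of each treatment over replicate tanks, unlike the single tank per lineage in F2. A tank effect would thus enter the dose contrast and the spread differently in F1 and F2. Its part in the differences between generations below was not tested. No gene was called at F1 140 dpf, F1 365 dpf or F2 112 dpf by edgeR's quasi-likelihood test (0% of 19975, 23341 and 15182 genes tested). DESeq2, run as at F2 365 dpf, called 87, 114 and 9 genes, where 38000, 39102 and 34910 had a p-value. An unadjusted p under 0.05 in edgeR was reached there by 1745 (8.74%), 1999 (8.56%) and 310 genes (2.04%). Genes higher in BPA40 at that threshold made up 5.60% of those tested at F1 140 dpf, 5.91% at F1 365 dpf and 1.09% at F2 112 dpf. Genes lower in BPA40 made up 3.14, 2.65 and 0.955%. Fish of the 2 doses did not overlap in 5.42% of genes at F1 140 dpf (3.38% higher, 2.04% lower in BPA40), 5.57% at F1 365 dpf (3.60% and 1.97%) and 1.75% at F2 112 dpf (0.975% and 0.777%), beside 6.60% at F2 365 dpf. At F2 112 dpf the shares of 2.04% and 1.75% lay below the chance probabilities of 0.05 and 0.0286. The spread between fish was widest at F2 112 dpf, with a biological coefficient of variation of 43.2%, against 36.0% at F1 140 dpf, 33.3% at F1 365 dpf and 31.1% at F2 365 dpf. Depth was lowest there too, with a median of 11038980 fragments against 17159276 at F2 365 dpf, and the part of depth and spread in these counts was not tested.

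**Figure D4:**
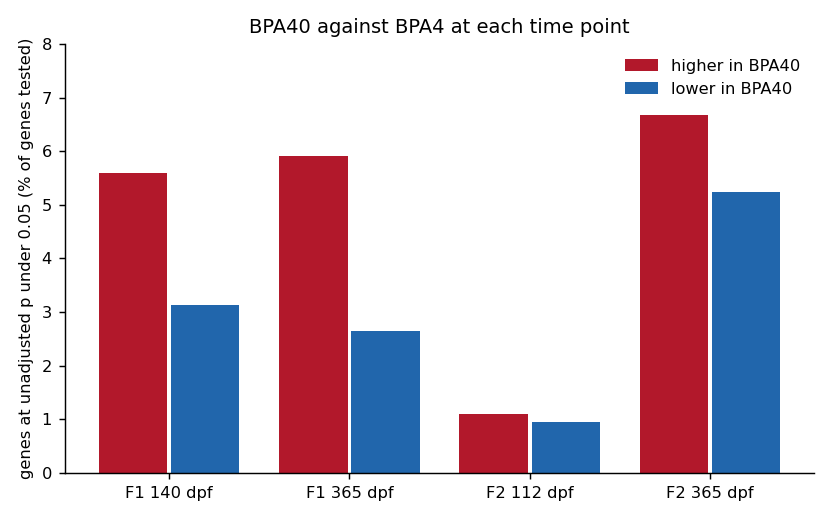
Share of genes tested, in percent, with an unadjusted p under 0.05 for BPA40 against BPA4 at each time point, as bars for genes higher and lower in BPA40. The shares at F2 365 dpf were 6.68 and 5.23%, and those at F2 112 dpf 1.09 and 0.955%.

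Fold changes at F2 365 dpf were weakly related to those at the other time points. Across genes, which are not independent replicates, Pearson's r of the log2 fold changes was 0.126 with F1 140 dpf (19690 genes), 0.0876 with F1 365 dpf (23040 genes) and 0.0667 with F2 112 dpf (14930 genes). Genes at an unadjusted p under 0.05 at F2 365 dpf had the same sign in 59.9% at F1 140 dpf, 56.7% at F1 365 dpf and 53.4% at F2 112 dpf. Over all genes these shares were 54.9, 53.9 and 51.1%.

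The called genes varied at the other time points without a called difference. Both genes that fell were too low to be tested at F1 140 dpf and at F2 112 dpf, so no call was possible there. GSONMT00036269001 stood at 2.94 to 6.70 CPM in BPA40 and 6.33 to 22.9 CPM in BPA4 at F1 365 dpf, with a log2 fold change of -1.49 ± 0.441 (SE) and an edgeR adjusted p of 0.434. Its F1 365 dpf controls alone spanned 1.84 to 27.4 CPM. At F2 112 dpf it stood at 0, 0, 0.0521 and 2.70 CPM in BPA40, at 0.401 to 2.65 CPM in BPA4, and at 0 in all 4 controls, and it was too low to be tested. GSONMT00055895001 reached 0.411 to 1.36 CPM in BPA40 and 0.225 to 3.77 CPM in BPA4 at F1 365 dpf, with a log2 fold change of -0.64 (edgeR adjusted p = 0.845). So the genes nearly absent from F2 BPA40 livers at 365 dpf were measured in all 4 F1 BPA40 livers of the same age. Near-absence was not confined to F2 BPA40, since F1 365 dpf Control replicate 3 held 0 fragments of GSONMT00055895001.

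GSONMT00044688001 stood at 10.9 to 43.5 CPM in BPA40 and 2.63 to 10.4 CPM in BPA4 at F1 365 dpf. The groups did not overlap, but the log2 fold change of 1.71 ± 0.506 (SE) had an edgeR adjusted p of 0.434. At F2 112 dpf it stood at 3.06 to 9.82 CPM in BPA40 and 1.52 to 16.8 CPM in BPA4, with a log2 fold change of -0.53. GSONMT00044689001 stood at 38.8 to 160.3 CPM in BPA40 and 19.2 to 81.7 CPM in BPA4 at F1 365 dpf, with overlap between the doses. At F2 112 dpf it stood at 33.4 to 65.2 CPM in BPA40 and 40.9 to 106.9 CPM in BPA4. For GSONMT00044689001, the BPA4 fish of F2 365 dpf, at most 8.47 CPM, lay below every BPA40 and BPA4 fish of the other time points. For GSONMT00044688001 they did not, since single fish stood at 1.52 CPM at F2 112 dpf and at 1.71 CPM at F1 140 dpf, against up to 2.40 CPM here. F1 140 dpf BPA40 replicate 2, at 2.33 CPM, was lower in CPM but not in FPKM (1.91 against up to 1.89). CPM were scaled separately at each time point, so close levels cannot be ranked across them.

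**Figure D5:**
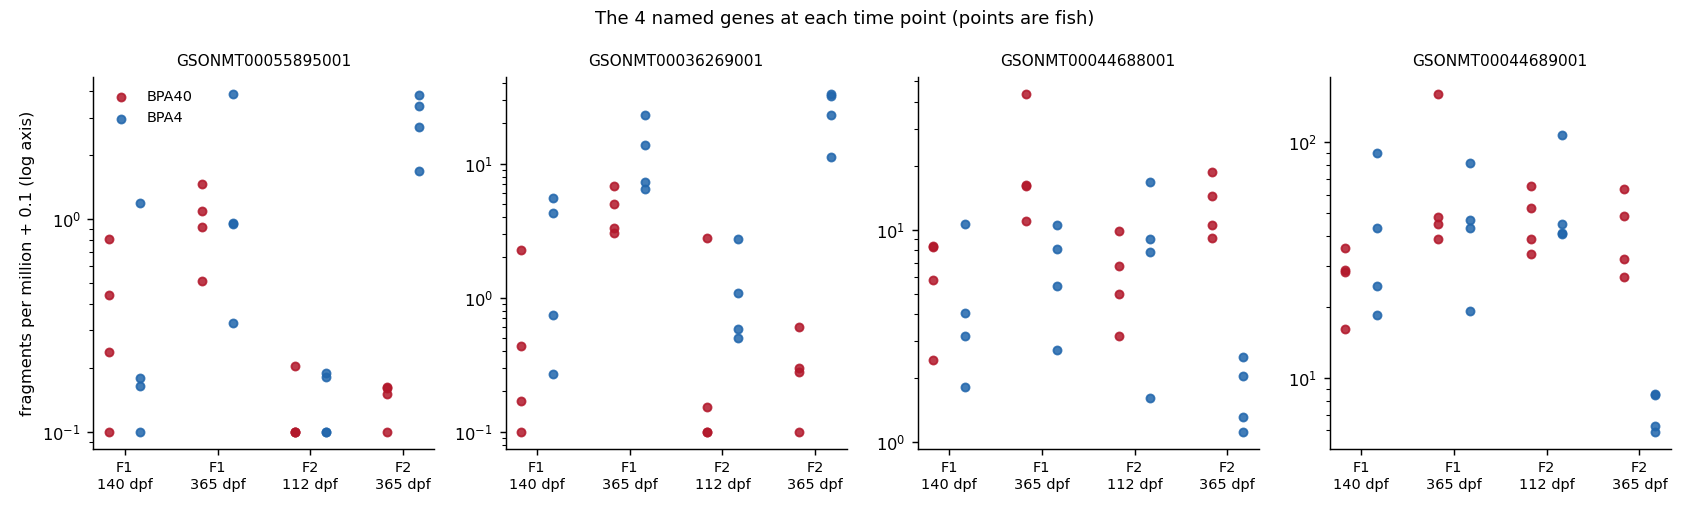
CPM plus 0.1 on a log axis for the 4 named genes at each time point, 1 point per fish, with BPA40 left of BPA4. The doses lie far apart at F2 365 dpf for all 4 genes, and GSONMT00044689001 overlaps between doses at the other time points.

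Whether the dose contrast itself differed was tested in joint fits of 16 fish. Between generations, such a difference cannot be told apart from the difference in tank layout. Between F2 and F1 at 365 dpf, DESeq2 called 177 of the 41209 genes with a p-value. By edgeR, 0 of 26254 genes were called (0%) and 2559 had an unadjusted p under 0.05 (9.75%). The smallest adjusted p was 0.0509, for GSONMT00036269001, whose dose contrast was 5.29 lower on the log2 scale in F2 (difference -5.29 ± 0.812, SE). For GSONMT00055895001 the difference was -5.13 ± 1.07 (SE), with an edgeR adjusted p of 0.150. Leaving out F1 BPA40 replicate 3 gave 15 called genes, and leaving out F1 BPA4 replicate 2 gave 5. Between 365 and 112 dpf in F2, DESeq2 called 50 of the 40567 genes with a p-value. By edgeR, 0 of 25164 genes were called (0%) and 1433 had an unadjusted p under 0.05 (5.69%). The differences of GSONMT00044688001 and GSONMT00044689001 between these ages, 3.49 ± 0.723 and 2.83 ± 0.496 (SE), both had an edgeR adjusted p of 0.382.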

How the data were processed

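Livers were sequenced as paired-end stranded mRNA libraries. The authors mapped reads to the published trout genome with TopHat2 2.1.0 and Bowtie2 2.2.6 and ran Cufflinks and Cuffdiff per time point. The deposited tables give raw fragment counts per gene and fish, whole numbers in 100% of entries, and FPKM scaled by Cuffdiff over 12 fish, with 8 further columns of scaled fragments not used. Groups came from the labels. Of 46585 genes, 14 marked by Cuffdiff as too deep to process (HIDATA) and listed at 0 were dropped. The number of fragments per fish bounds precision for low genes.

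Counts of the 8 fish were fitted with edgeR 4.0.16 (R 4.3.3; filterByExpr, TMM, quasi-likelihood test, Benjamini-Hochberg adjustment) without covariates. CPM are on the TMM scale of the 8 BPA40 and BPA4 fish, set separately at each time point. Controls were placed on it through the same reference fish. The study's test, Cuffdiff, needs alignments, which were not used here. The SE of a log2 fold change is its size divided by the square root of the quasi-likelihood F, not an SE given by the fit. Single values were compared by two-sided exact permutation tests. The rule named up to 2 called, non-overlapping genes in each direction, by adjusted p. Gene and marker lists could not be used without gene names. Members and lists were chosen with earlier results of these data known. Alternatives were DESeq2 1.42.0, limma 3.58.1, other scalings, filters and tests, a replicate block, all 12 fish, and each fish left out. Bias-adjusted deviances and the count at unadjusted p were added after seeing the data. The tests were tried on simulated counts. In 12 pairs of fish of a group, chi-square per degree of freedom was at least 26.6, so none was a duplicate.

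The early F2 titles say 140 dpf where the other labels and the study's methods say 112 dpf, which was used. Descriptions of the F1 BPA40 fish say 3 mg/l where titles and methods say 30 mg/l, which was used.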

Additional observations from a re-analysis of the deposited data

Results flagged for a closer look

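The score of BPA4 replicate 2 on the second component was 80.57, at a gap of 0.911 of the range of the 4 BPA4 fish to the next of them, beyond Dixon's 95% critical value for 4 samples. Of 29 groups of 4 fish examined in this way it was the only one so far apart, and chance gives about 1.45. This fish had the largest mean distance to its own dose, 0.856. Without it 3 genes were called, 0 that rose and 3 that fell, and the 2 falling genes named above were among them.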

How the results depend on the processing

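The 5 genes called at F2 365 dpf became 486 with DESeq2 (339 higher, 147 lower), 418 with edgeR's likelihood-ratio test (301 and 117), 2 without scaling, and 0 with at least 10 fragments in every fish, with all 12 fish fitted, or with limma-voom. Unadjusted p under 0.05 was then reached by 2636, 2296 and 3002 genes. With 10 fragments the 2 falling genes were not tested. DESeq2, the likelihood-ratio test, RLE factors, both FPKM fits, a filter of 1 fragment and bias-adjusted deviances kept all 5. With each fish left out the count ran between 0 and 13, and genes at an unadjusted p under 0.05 between 2407 and 3355. Replicate numbers did not pair the fish: deviations of same-numbered fish correlated at -0.184 to 0.0505, and the replicate block gave 1 called gene, none of the 5. With the block, 2766 genes had an unadjusted p under 0.05, and no gene was called at the other time points or for the difference of the contrasts by edgeR, with 390 to 2358 genes at an unadjusted p under 0.05. At the other time points, DESeq2 called 87 (F1 140 dpf), 114 (F1 365 dpf) and 9 genes (F2 112 dpf), with 177 for the contrast by generation, or 50 by age. All 12 fish gave 2 at F1 140 dpf, and the filter of 10 fragments gave 2 by generation. Leaving out fish gave 0 to 1, 0 to 2 and 0 genes at these time points, 0 to 15 by generation and 0 to 1 by age. The separation ratio ran from 0.297 to 0.375. Differences of BPA40 minus BPA4 ran from 2044400 to 3166900 fragments and from 690.5 to 1361 genes detected. The TMM factor ran from -0.0207 to 0.0485 and the share of the top 100 genes from -1.33 to 0.926 percentage points, both turning sign without BPA40 replicate 0 and the share also without BPA4 replicate 0 (0.514) or 3 (0.0884). The causes were not tested.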
